A study of Sus scrofa with 48 samples.

Results

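The endothelial marker genes described here are CLDN5, TEK, VWF, ESAM, PECAM1, CDH5 and KDR, chosen by gene name. All 7 genes had at least 1 probe set carrying that gene symbol alone, 16 probe sets in all among 23999 tested, and 7 of the 6765 genes that the annotation names. They were followed over fat and liver of 24 Yorkshire gilts, 6 months of age, of a genetic line bred toward low residual feed intake, a trait of efficient animals that all groups share. The 8 groups held 6 arrays each. They were fat and liver of N298 gilts fasted for 3 days, N298 gilts fed ad libitum, D298 gilts fasted for 3 days and D298 gilts fed ad libitum, where D298 is the wild-type form of the melanocortin 4 receptor and N298 gilts are homozygous for the variant with asparagine in place of aspartic acid. Each gilt gave 1 fat and 1 liver sample of total RNA, and each array was hybridised with labelled RNA of 1 sample. The depot from which fat was taken is not stated in the labels.

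Endothelial cells line every blood vessel. They are joined to each other by adherens junctions, in which CDH5 (VE-cadherin) holds neighbouring cells together, and by tight junctions, of which the claudin CLDN5 is the endothelial component; ESAM and PECAM1 (CD31) are immunoglobulin-type adhesion proteins of the same cell borders. TEK (Tie2) is the receptor of the angiopoietins, which keep vessels quiescent or loosen them, and KDR (VEGFR2) is the receptor through which VEGFA drives endothelial growth. VWF is a large glycoprotein stored in endothelial granules that captures platelets at an injury. The capillaries of fat have a continuous lining, whereas those of liver are sinusoids with a fenestrated lining that is poor in tight junctions and in stored VWF.

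The genes were represented by 1 probe set of CLDN5, 3 each of TEK, VWF and ESAM, and 2 each of PECAM1, CDH5 and KDR. The brightest probe set of each gene over all arrays stands for the gene below unless another is named, and the rest are called the second and the third in order of brightness. The plot of fasting responses gives the identifier of each. The last probe sets of TEK, VWF and KDR were dim, and those of TEK and VWF ranked at percentile 9.69 and 12.5 of mean signal among all probe sets on fat arrays, with that of KDR below both. Probe sets of 1 gene share a transcript and are not replicates.

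Values are signal intensities on the linear scale of the deposited table, scaled so that the trimmed mean of every array is about 500, and differences are on the log2 scale. The median signal of an array was 159 to 193 in fat and 123 to 149 in liver, and each array had a median correlation with the other arrays of its group of 0.915 to 0.935. On 5 of the fat arrays (N298 fasted replicate 6, N298 fed replicate 3, D298 fasted replicates 4, 5 and 6) the summed signal of 9 skeletal muscle markers was 60000 or more, against a median of 8436 in fat of fasted gilts and 13190 in fat of fed gilts. On 4 fat arrays (N298 fed replicates 3 and 6, D298 fasted replicate 5, D298 fed replicate 4) the summed signal of 12 hepatocyte markers was 15000 or more. The member counts for fasting in fat were also taken without these arrays. Contrasts between tissues, gene lists, within-array ratios and covariation were not repeated without them. The adipocyte genes ADIPOQ and LIPE were 9.08 ± 0.11 and 10.57 ± 0.11 log2 units higher in fat than in liver (SE), and the hepatocyte gene APOB had a log2 difference, fat minus liver, of -9.92 ± 0.32, as the tissue labels would have it. Among 1128 pairs of arrays 0 had identical values.

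Fasting in fat was followed by higher signals of 5 of the 7 genes, CLDN5, TEK, VWF, ESAM and PECAM1, by 1.24-fold to 2.16-fold. No gene fell. By probe set, 8 of 16 were called higher and 0 lower, where 15.1% of all probe sets were called higher in that comparison (10.1% lower). By gene, 5 of 7 were called higher, where 15.3% of all genes were. The median log2 difference was 0.39 over the 16 probe sets and 0.08 over all probe sets. An unadjusted p under 0.05 was reached by 10 of the 16, the 8 called and the 2 of CDH5, where 35.1% of all probe sets reached it. Of the probe sets called, 60.1% were higher in this setting and 43.2% when arrays were centred on their medians; the same 5 genes apart from PECAM1 kept their calls there. Without the 5 muscle-rich arrays, 6 of the 16 probe sets were called higher, and PECAM1 missed the threshold (log2 difference 0.31, adjusted p = 0.0688); without the 4 hepatocyte-rich arrays 8 were called. No member separated all fasted from all fed gilts in fat, 0 of 16, as 1.69% of all probe sets did. In whole tissue, more or fewer endothelial cells and more or less RNA per cell cannot be told apart.

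**Figure D1:**
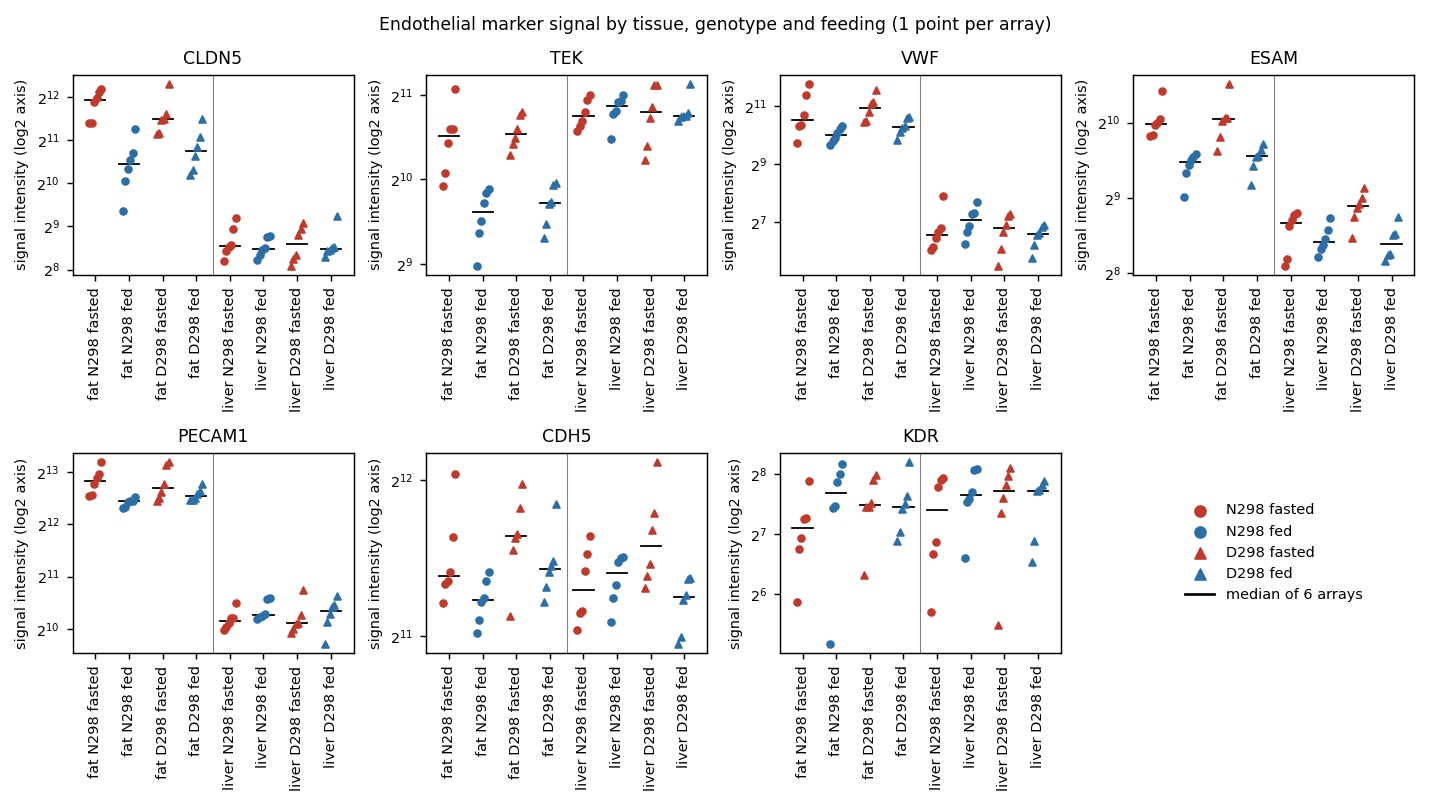
Signal intensity of the brightest probe set of each endothelial gene on a log2 axis, 1 point per array, for fat and liver of N298 and D298 gilts fasted for 3 days or fed; black lines are medians of 6 arrays. In fat, CLDN5 signals were 2259 to 5093 in fasted gilts and 657 to 2884 in fed gilts, while in liver the feeding groups overlap; PECAM1, CLDN5 and VWF lie above their liver signals on every fat array, CLDN5 by a small margin (lowest 657 in fat, highest 601 in liver).

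CLDN5, the tight junction claudin, had the lowest, median and highest signals 2259, 3015 and 5093 on fat arrays of fasted gilts, against 657, 1550 and 2884 on those of fed gilts. The ranges overlapped, but all 12 fasted gilts lay above the median of the fed gilts. The difference was 1.11 ± 0.19 log2 units (SE; 95% confidence interval 0.71 to 1.52), or 2.16-fold, with a limma adjusted p of 0.000207. In N298 fat the signals were 2690, 3910 and 4649 in fasted gilts and 657, 1395 and 2437 in fed gilts, with no overlap. In D298 fat they were 2259, 2873 and 5093 in fasted gilts and 1180, 1724 and 2884 in fed gilts, with overlap. The log2 difference was 1.45 ± 0.27 in N298 fat (adjusted p = 0.000933) and 0.77 ± 0.27 in D298 fat (adjusted p = 0.0730), and the difference between these responses, 0.68 ± 0.39 (95% confidence interval -0.13 to 1.49), did not pass the test (adjusted p = 0.889).

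ESAM, the junctional adhesion protein, had signals of 787, 1031 and 1466 (lowest, median, highest) in fat of fasted gilts, against 517, 738 and 839 in fat of fed gilts. The ranges met only at their edges, and 12 of 12 fasted gilts were above the fed median. It was 1.47-fold higher (log2 difference 0.56 ± 0.09, adjusted p = 8.57e-05). The second probe set had 475, 624 and 950 in fasted gilts against 336, 413 and 544 in fed gilts, a log2 difference of 0.61 ± 0.10 (adjusted p = 0.000116), so both bright probe sets of the gene moved together. The third probe set, the dimmest of the gene, had 0.39 ± 0.21 and was not called (adjusted p = 0.209).

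PECAM1 had signals of 5617, 7002 and 9384 in fat of fasted gilts and 5119, 5683 and 7009 in fat of fed gilts. Most fasted gilts, 11 of 12, lay above the fed median, with wide overlap of the ranges. The rise was the smallest of the 5 genes called, 0.31 ± 0.09 log2 units or 1.24-fold (adjusted p = 0.0118). Its call was also lost with the GAPDH 3' to 5' ratio as a covariate (0.26, adjusted p = 0.0730) and without replicate 2 (0.26, adjusted p = 0.0588) or replicate 6 (0.27, adjusted p = 0.0569). The second probe set had 2321, 2992 and 4721 in fasted gilts against 1727, 2404 and 2861 in fed gilts, 0.40 ± 0.09 log2 units higher (adjusted p = 0.00275), and kept its call in every alternative tried.

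CDH5, VE-cadherin, had signals of 2241, 3083 and 4201 in fat of fasted gilts and 2078, 2580 and 3681 in fat of fed gilts. The groups lay largely on top of each other. The log2 difference of 0.22 ± 0.09 (95% confidence interval 0.04 to 0.41) did not pass the test (adjusted p = 0.0746), nor did the second probe set's 0.28 ± 0.11 (adjusted p = 0.0777). The first was called after quantile normalization (0.26, adjusted p = 0.0373) and with brighter probe sets only (adjusted p = 0.0496), and both without replicate 5 (0.31, adjusted p = 0.0168; 0.37, adjusted p = 0.0374).

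TEK, the angiopoietin receptor, had signals of 966, 1491 and 2154 in fat of fasted gilts and 505, 840 and 993 in fat of fed gilts. The ranges touched over a narrow band, and all 12 fasted gilts were above the fed median. It was 1.85-fold higher (log2 difference 0.89 ± 0.12, 95% confidence interval 0.65 to 1.13, adjusted p = 8.13e-06), with nearly the same difference in N298 fat, 0.90 ± 0.16 (adjusted p = 0.000658), and in D298 fat, 0.88 ± 0.16 (adjusted p = 0.00112). In each genotype the fasted and fed gilts did not overlap. The second probe set, with 79.7, 289 and 422 in fasted gilts against 68.7, 166 and 234 in fed gilts, gave 0.87 ± 0.22 (adjusted p = 0.00593), and lost its call without the muscle-rich arrays (0.70, adjusted p = 0.142). The third probe set, which was dim, gave -0.01 ± 0.55 (adjusted p = 0.992).

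KDR, the VEGF receptor, was not called, and it had no bright probe set. On fat arrays its brightest ranked at percentile 48.7 of mean signal, against 82.4 to 98.3 for the brightest of the other genes. The KDR signals were 58.3, 164 and 253 in fat of fasted gilts and 36.1, 179 and 296 in fat of fed gilts, fully interleaved. The log2 difference was -0.18 ± 0.26 (95% confidence interval -0.72 to 0.35, adjusted p = 0.671), an interval that leaves room for changes of either sign. The dim second probe set gave 0.87 ± 0.59 (adjusted p = 0.324).

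VWF, the platelet-binding glycoprotein, had signals of 846, 1704 and 3521 in fat of fasted gilts and 816, 1140 and 1565 in fat of fed gilts. The groups shared their low end, and the highest signals, those above 1565, were all from fasted gilts. It was 1.59-fold higher, by 0.67 ± 0.16 log2 units (95% confidence interval 0.33 to 1.02, adjusted p = 0.00422), and 11 of 12 fasted gilts were above the fed median. The other probe sets of the gene gave -0.07 ± 0.20 (adjusted p = 0.852) and -0.59 ± 0.39 (adjusted p = 0.306), so the rise of VWF rests on 1 of its 3 probe sets. The signals of those 2 were 33.1 to 138 and 3.96 to 33.5 in fat of fasted gilts, against 48.8 to 107 and 5.92 to 71.4 in fat of fed gilts.

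**Figure D2:**
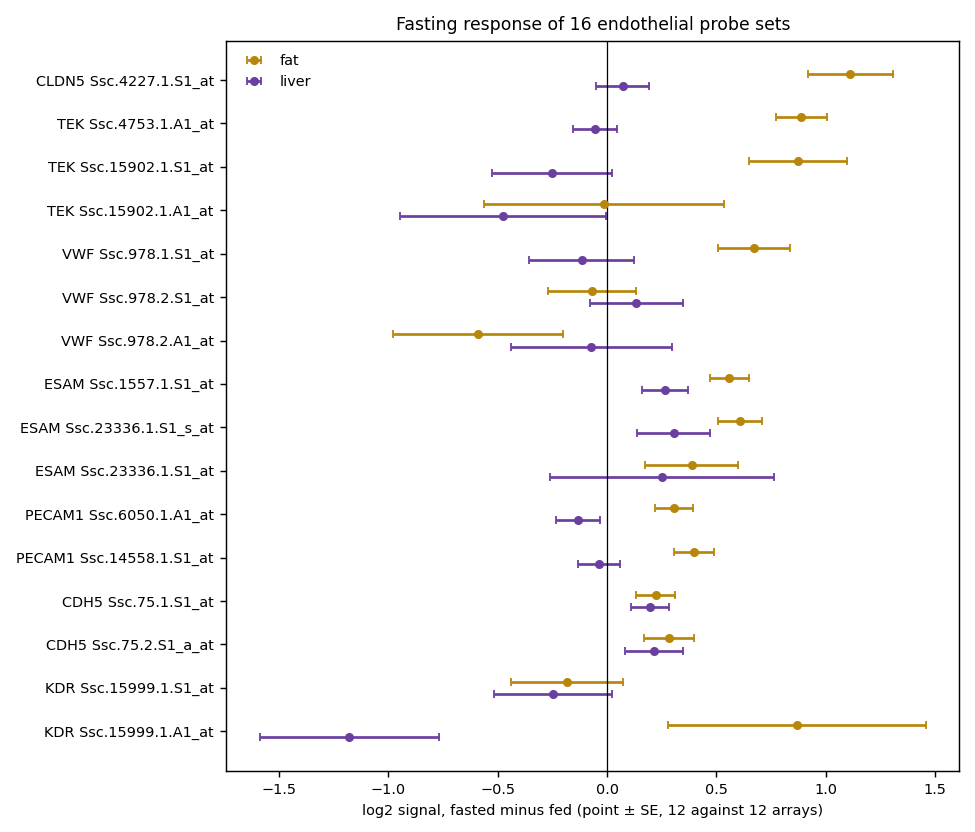
Log2 difference of signal, fasted minus fed, with its SE for each of the 16 probe sets in fat (gold) and liver (purple), 12 arrays against 12. In fat, CLDN5 (1.11), TEK (0.89) and VWF (0.67) lead among the brightest probe sets, and in liver no probe set was called.

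By genotype, 8 probe sets were called higher in N298 fat (background 9.07% of all probe sets) and 3 in D298 fat (6.57%). In N298 fat the fasted and fed gilts did not overlap for 5 probe sets, those of CLDN5, TEK, ESAM (the brightest) and both of PECAM1, against 7.29% of all probe sets; in D298 fat they did not overlap for TEK alone, against 4.38%. In D298 fat VWF had 0.63 ± 0.23 (adjusted p = 0.0820) and PECAM1 0.21 ± 0.12 (adjusted p = 0.297). Both ESAM probe sets were called in D298 fat, at 0.51 ± 0.13 (adjusted p = 0.0107) and 0.65 ± 0.14 (adjusted p = 0.00406). No response differed between genotypes by the interaction test, in which limma called 0 of 23999 probe sets (1368, or 5.7%, at an unadjusted p under 0.05, 0 of them members). The counts within a genotype move with single arrays: the N298 count was 3 without replicate 2, 5 without replicate 6, 4 without the muscle-rich or without the hepatocyte-rich arrays, 3 with the GAPDH 3' to 5' ratio as a covariate and 5 under median centring. The D298 count was 5 without replicate 2 and 1 without the muscle-rich arrays.

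The rise was also read against the endothelial genes themselves, within each array, a comparison added after the data were seen. Over CDH5 on the same fat array, the mean log2 ratio of CLDN5 was 0.12 ± 0.36 in fasted gilts and -0.77 ± 0.48 in fed gilts (SD, n = 12 each), a difference of 0.89 (2-sided permutation test, adjusted p = 0.000880 over 22 tests). The ratio of TEK to CDH5 was 0.67 higher (permutation adjusted p = 0.000990), that of ESAM 0.34 higher (adjusted p = 0.000880) and that of VWF 0.45 higher (adjusted p = 0.0196). For these ratios 12, 12 and 11 of 12 fasted gilts lay above the fed median. Over PECAM1, the ratios of CLDN5, TEK and ESAM were higher by 0.81 (adjusted p = 0.000990), 0.58 (adjusted p = 0.00365) and 0.25 (adjusted p = 0.0239), while VWF had 0.37 (adjusted p = 0.0612). The ratio of CDH5 to PECAM1 differed by -0.08 (permutation adjusted p = 0.326), and the KDR ratios were -0.41 over CDH5 and -0.49 over PECAM1 (adjusted p = 0.259 and 0.219). The signals of these probe sets thus changed unequally on the same arrays, CLDN5 and TEK by more than CDH5 and PECAM1. Each ratio difference restates the fasting responses of its 2 genes given above and is not separate support. Only 1 probe set stood for each gene, and whether probe sets of different brightness respond on a like scale was not tested. Where a replicate was left out, the permutation p was not adjusted. The ESAM to PECAM1 ratio then had an unadjusted p of 0.0694 without replicate 3 (difference 0.18). The VWF to PECAM1 ratio had an unadjusted p under 0.05 without replicate 2, 3, 4 or 6, as over all arrays (0.0278).

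**Figure D3:**
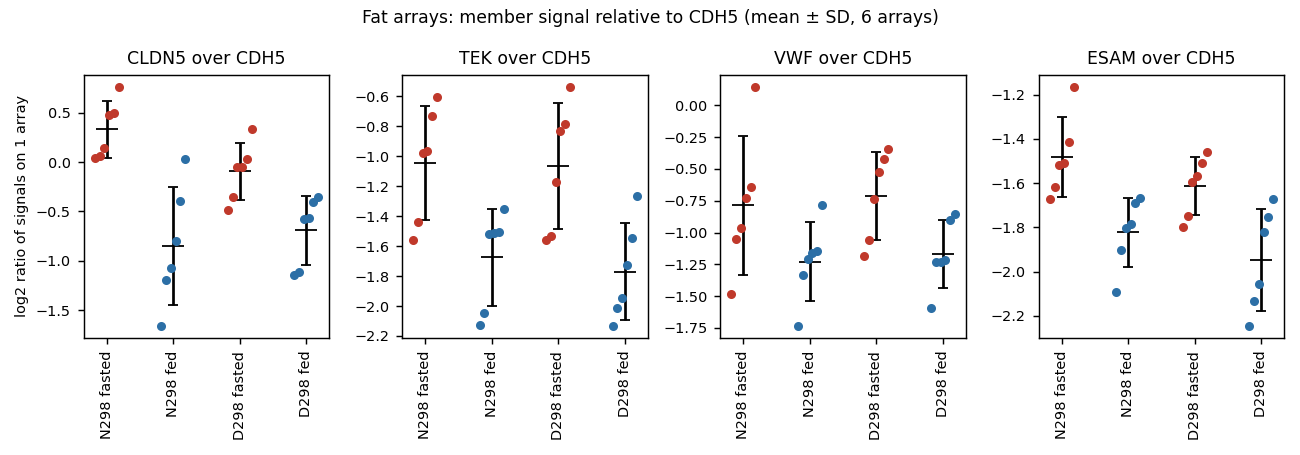
Log2 ratio of the CLDN5, TEK, VWF and ESAM signal to the CDH5 signal of the same fat array, 1 point per array, with mean ± SD of 6 arrays, for fasted (red) and fed (blue) gilts of each genotype. The CLDN5 ratio averaged 0.12 in fasted gilts and -0.77 in fed gilts.

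After fasting no member was called in liver, 0 of 16 probe sets by limma, where 4.47% of all probe sets were called in either direction; 3 had an unadjusted p under 0.05, where 16.7% of all did. CLDN5 signals were 273, 372 and 587 in fasted gilts and 299, 358 and 601 in fed gilts, and the difference of 0.07 ± 0.12 log2 units had a 95% confidence interval of -0.18 to 0.33. TEK had 1198, 1732 and 2223 in fasted gilts and 1427, 1759 and 2248 in fed gilts (-0.06 ± 0.10, interval -0.27 to 0.15). For these genes the groups covered the same range. PECAM1 had 973, 1107 and 1707 in fasted gilts and 840, 1247 and 1586 in fed gilts, and VWF 44.9, 100.02 and 236 in fasted gilts and 54.1, 108 and 206 in fed gilts. KDR had 45.0, 209 and 275 in fasted gilts and 93.1, 211 and 272 in fed gilts. None of these separated the groups either. ESAM was 274, 433 and 560 in fasted gilts and 286, 341 and 430 in fed gilts, a difference of 0.27 ± 0.10 that did not pass the test (adjusted p = 0.180). CDH5 was 2101, 2780 and 4437 in fasted gilts and 1978, 2514 and 2914 in fed gilts (0.20 ± 0.09, adjusted p = 0.252). The dim second KDR probe set had 2.17, 33.2 and 89.4 in fasted gilts and 23.5, 63.3 and 94.1 in fed gilts (-1.18 ± 0.41, adjusted p = 0.116). Within the liver arrays, the ratios of ESAM and of CDH5 to PECAM1 were 0.40 and 0.33 log2 units higher in fasted than in fed gilts. Both passed the permutation test (adjusted p = 0.0318 and 0.0385). Even the unadjusted permutation p was over 0.05 without replicate 5 for ESAM (0.0691). For CDH5 it was so without replicate 2 or 5 (0.0738 and 0.0881).

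The second ESAM probe set was the one member called within a genotype in liver. In D298 liver it had signals of 149, 193 and 261 in fasted gilts and 48.2, 104 and 165 in fed gilts, a log2 difference of 1.03 ± 0.24 (adjusted p = 0.0234; 0.758% of all probe sets were called higher there). In N298 liver it had 96.5, 169 and 197 in fasted gilts and 186, 204 and 230 in fed gilts, a difference of -0.42 ± 0.24, and 0 of 16 probe sets were called (background 1.48%). The signals of N298 and D298 fed gilts did not overlap, 186 to 230 against 48.2 to 165, as for 0.238% of all probe sets. The D298 call was lost without replicate 2, 3, 4 or 5. The test of the difference between the genotypes' responses gave -1.46 ± 0.33 with an unadjusted p of 0.000269 and an adjusted p of 0.850. The brightest ESAM probe set had -0.36 ± 0.21 in that test (adjusted p = 0.863).

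The fasting response of fat was larger than that of liver for 7 of 16 probe sets (background 8.84% of all probe sets called higher) and for 4 of 7 genes (8.91% of genes). The gap was 1.04 ± 0.22 log2 units for CLDN5 (adjusted p = 0.000543), 0.95 ± 0.15 for TEK (adjusted p = 7.39e-06), 0.79 ± 0.28 for VWF (adjusted p = 0.0467) and 0.44 ± 0.13 for PECAM1 (adjusted p = 0.0106). ESAM differed by 0.29 ± 0.13 (adjusted p = 0.133), CDH5 by 0.03 ± 0.13 (adjusted p = 0.926) and KDR by 0.06 ± 0.40, none of them called. The median over all probe sets of this contrast was 0.12, and it was -0.02 when arrays were centred on their medians. CLDN5 and TEK kept their calls in 14 of 14 alternatives. VWF kept its call in 5. It lost it after quantile normalization, under median centring, without the gilt block, with eBayes without trend and without replicate 1, 2, 3, 4 or 6 (0.61 to 0.92, adjusted p = 0.05003 to 0.198). PECAM1 lost its call under median centring (0.30, adjusted p = 0.121), without replicate 1 (0.41, adjusted p = 0.0538) and without replicate 2 (0.32, adjusted p = 0.134). The count of 7 probe sets became 3 under median centring, 4 without replicate 1, 4 or 6 and 3 without replicate 2 or 3. Of all probe sets called in this contrast, 54.9% were higher, and 28.0% under median centring.

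Levels were also compared between fat and liver. Across all gilts 9 of 16 probe sets were called higher and 3 lower in fat than in liver, where 46.9% and 25.2% of all probe sets were, so the share of members called was near that of all probe sets. Of the brightest probe sets that of VWF had the widest gap, with signals of 816, 1300 and 3521 in fat against 44.9, 101 and 236 in liver, 13.9-fold (3.80 ± 0.14 log2 units, adjusted p = 1.89e-28). That gap rests on 1 of the 3 VWF probe sets, as the second gave 0.08 ± 0.13 (adjusted p = 0.609) and the third -0.14 ± 0.25 (adjusted p = 0.623). CLDN5 had 657, 2362 and 5093 in fat against 273, 363 and 601 in liver, 5.85-fold (2.55 ± 0.11), and PECAM1 5119, 6003 and 9384 in fat against 840, 1192 and 1707 in liver, 5.28-fold (2.40 ± 0.06). For these 3 genes no fat array was as low as any liver array. In all, the tissues did not overlap for 5 probe sets, those 3 with the second of ESAM and of PECAM1, as for 17.4% of all probe sets. ESAM had 517, 816 and 1466 in fat and 274, 373 and 560 in liver, 2.26-fold (1.18 ± 0.07).

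CDH5, KDR and TEK stood apart from that order. CDH5 had nearly the same signals in both tissues, 2078, 2719 and 4201 in fat and 1978, 2640 and 4437 in liver. Its log2 difference of 0.08 ± 0.06 (95% confidence interval -0.05 to 0.20, adjusted p = 0.290) changed sign with the scaling, being 0.22 after quantile normalization (adjusted p = 0.00259) and -0.28 under median centring (adjusted p = 8.85e-05). The second CDH5 probe set was called higher in fat, at 0.44 ± 0.09 (adjusted p = 3.03e-05), and lost its call under median centring (0.08, adjusted p = 0.397). KDR had 36.1, 175 and 296 in fat and 45.0, 211 and 275 in liver (-0.08 ± 0.20, adjusted p = 0.719), and was called lower in fat under quantile normalization (-0.41) and median centring (-0.44). Its dim second probe set was called lower in fat, with log2 means of 3.39 in fat and 5.26 in liver (-1.87 ± 0.33, adjusted p = 2.27e-06). TEK was lower in fat, with 505, 984 and 2154 against 1198, 1759 and 2248 in liver, 0.605-fold (-0.72 ± 0.08, adjusted p = 6.62e-12), and its second probe set gave -0.62 ± 0.19 (adjusted p = 0.00296). The third probe set of TEK, a dim one, went the other way, with log2 means of 3.61 in fat and 2.00 in liver (1.61 ± 0.35, adjusted p = 6.26e-05). The median of all probe sets in this contrast was 0.26, and it was 0.03 after quantile normalization and -0.10 under median centring, so levels between tissues are relative to the other RNA of each tissue. Of the probe sets called, 65.1% were higher in fat, against 53.2% and 45.3% in those scalings.

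The gap between TEK in fat and TEK in liver differed with the feeding state. In fasted gilts the log2 difference, fat minus liver, was -0.25 ± 0.11 (adjusted p = 0.0361), a call that was lost without replicate 1, 3, 5 or 6, and in fed gilts -1.20 ± 0.11 (adjusted p = 9.36e-14), where the tissues did not overlap (24% of all probe sets did not). CLDN5 was 3.07 log2 units higher in fat than in liver of fasted gilts and 2.03 higher in fed gilts, VWF 4.19 and 3.40, and PECAM1 2.62 and 2.18. The gap of ESAM was 1.32 in fasted gilts and 1.03 in fed gilts, and that of CDH5 0.09 and 0.06. The change of each gap with feeding is the tissue contrast of the fasting responses given above.

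**Figure D4:**
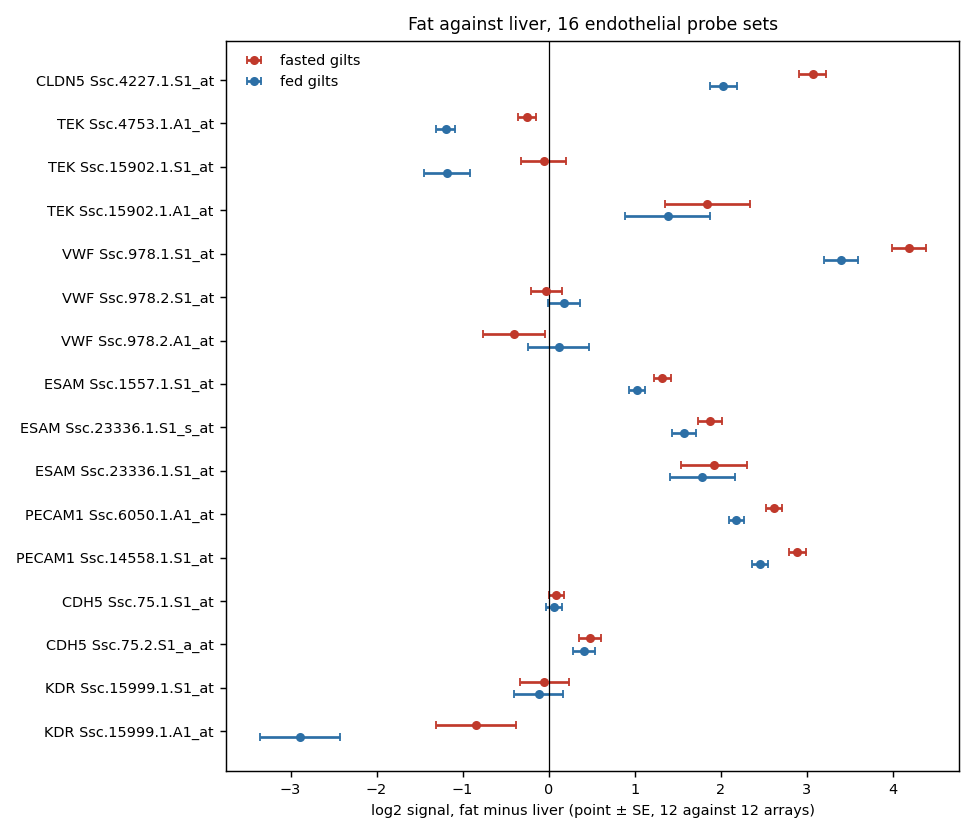
Log2 difference of signal, fat minus liver, with its SE for each of the 16 probe sets in fasted gilts (red) and fed gilts (blue), 12 arrays against 12. VWF (4.19 in fasted gilts, 3.40 in fed gilts) lies farthest to the right, and the brightest TEK probe set lies left of 0 in both feeding states.

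No member was called between the genotypes. Of 16 probe sets, limma called 0 between N298 and D298 gilts in fat (0% of all probe sets; 1321 of 23999, or 5.5%, at an unadjusted p under 0.05, 1 of them a member) and 0 in liver (0%; 1212, or 5.05%, at an unadjusted p under 0.05, 1 of them a member). CLDN5 differed by -0.05 ± 0.19 log2 units in fat (95% confidence interval -0.45 to 0.36) and TEK by -0.12 ± 0.12 (-0.36 to 0.12). CDH5 differed by -0.18 ± 0.09 in fat (adjusted p = 0.912), and its second probe set, the member counted above for fat, by -0.26 ± 0.11, with an interval of -0.50 to -0.02 and an adjusted p of 0.886. In liver the interval for CLDN5 was -0.26 to 0.25, and for TEK -0.19 to 0.23. In liver the interaction test also gave 0 of 23999 calls (1390, or 5.79%, at an unadjusted p under 0.05, 2 of them members, the second ESAM probe set and CDH5 at -0.47 ± 0.17).

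Once the mean of each group was taken out, the members varied together to an uneven degree over the 24 arrays of a tissue. Of 21 gene pairs in each tissue, 42 in all, 4 passed a permutation test in fat and 1 in liver. In fat these were PECAM1 with CDH5 (Pearson r = 0.74, Spearman rho = 0.66, permutation adjusted p = 0.0118), ESAM with CDH5 (r = 0.72, rho = 0.62, permutation adjusted p = 0.0118), CLDN5 with CDH5 (r = 0.56, rho = 0.53, permutation adjusted p = 0.0389) and CLDN5 with PECAM1 (r = 0.49, rho = 0.56, permutation adjusted p = 0.0441). Without the 2 arrays farthest from the median of the first gene named, r was 0.60, 0.61, 0.61 and 0.55. VWF had r of 0.61 with PECAM1 (permutation adjusted p = 0.0593) and 0.60 with CDH5 (permutation adjusted p = 0.0562), both short of the threshold. No pair with TEK passed in fat, where its r was between -0.07 (with VWF) and 0.44 (with KDR). In liver the pair was TEK with KDR (r = 0.59, rho = 0.65, permutation adjusted p = 0.0441; 0.70 without those 2 arrays). With replicate numbers also taken out, 1 pair passed in fat and 2 in liver. The points share array-wide scaling, and under median centring 5 pairs passed in fat and 0 in liver.

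Among other named genes above the median signal, those whose fat signals were most like each member over the 24 fat arrays, by Pearson r with group means removed, were SAT2 (0.73), MECOM (0.71) and TK2 (0.70) for CLDN5, KANK3 (0.74), CDC42BPB (0.73) and CDH5 (0.72) for ESAM, ENPP2 (0.77), APOA1 (0.76) and CDH5 (0.74) for PECAM1, and NOS3 (0.81), MKNK1 (0.80) and SH2D3C (0.78) for CDH5. NOS3 is the endothelial nitric oxide synthase. For TEK they were ATG4C (0.75), SYNE2 and MAPK14 (0.72), for VWF MAP4 (0.81), MAPRE3 (0.80) and ARHGEF2 (0.80), and for KDR IL13RA1 (0.85), COL5A2 (0.84) and PPP2R5D (0.82). In liver the nearest gene was CTCF (0.85) for TEK, NEMF (0.86) for KDR, PRELP (0.81) for ESAM, HSPB6 (0.71) for CDH5, METTL7B (0.70) for PECAM1, SERPINE2 (0.67) for VWF and OSBPL9 (0.63) for CLDN5. These are the top values among 4821 or more genes and are given as a description.

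Other genes of endothelium were read from lists of markers in which a gene stands as its brightest probe set. Of 15 other endothelial markers measured (26 listed), 8 were called higher in fat after fasting and 0 lower, where 15.3% of all genes were higher; the list median was 0.31 log2 units, and that of all genes 0.01. RAMP2, a co-receptor for adrenomedullin, was 0.73 ± 0.07 higher (adjusted p = 2.70e-07), NOS3 0.62 ± 0.15 (adjusted p = 0.00330), the transcription factor ERG 0.34 ± 0.08 (adjusted p = 0.00463) and the connexin GJA4 0.31 ± 0.08 (adjusted p = 0.00884). TIE1, the orphan partner of TEK, was 0.40 ± 0.12 higher (adjusted p = 0.0154). FLT1, the other VEGF receptor, had 0.22 (adjusted p = 0.393) and was not called. Of 12 genes of endothelial haemostasis and adhesion, 8 rose and 0 fell, with a median of 0.49: plasminogen activator PLAT by 0.82 ± 0.13 (adjusted p = 4.74e-05), endothelin EDN1 by 0.60 ± 0.11 (adjusted p = 0.000252), thrombomodulin THBD by 0.82 ± 0.15 (adjusted p = 0.000408) and VWF itself. In liver, limma called 0 of the 15 and 0 of the 12 (7.2% of all genes were called in either direction), with 3 and 0 at an unadjusted p under 0.05.

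**Figure D5:**
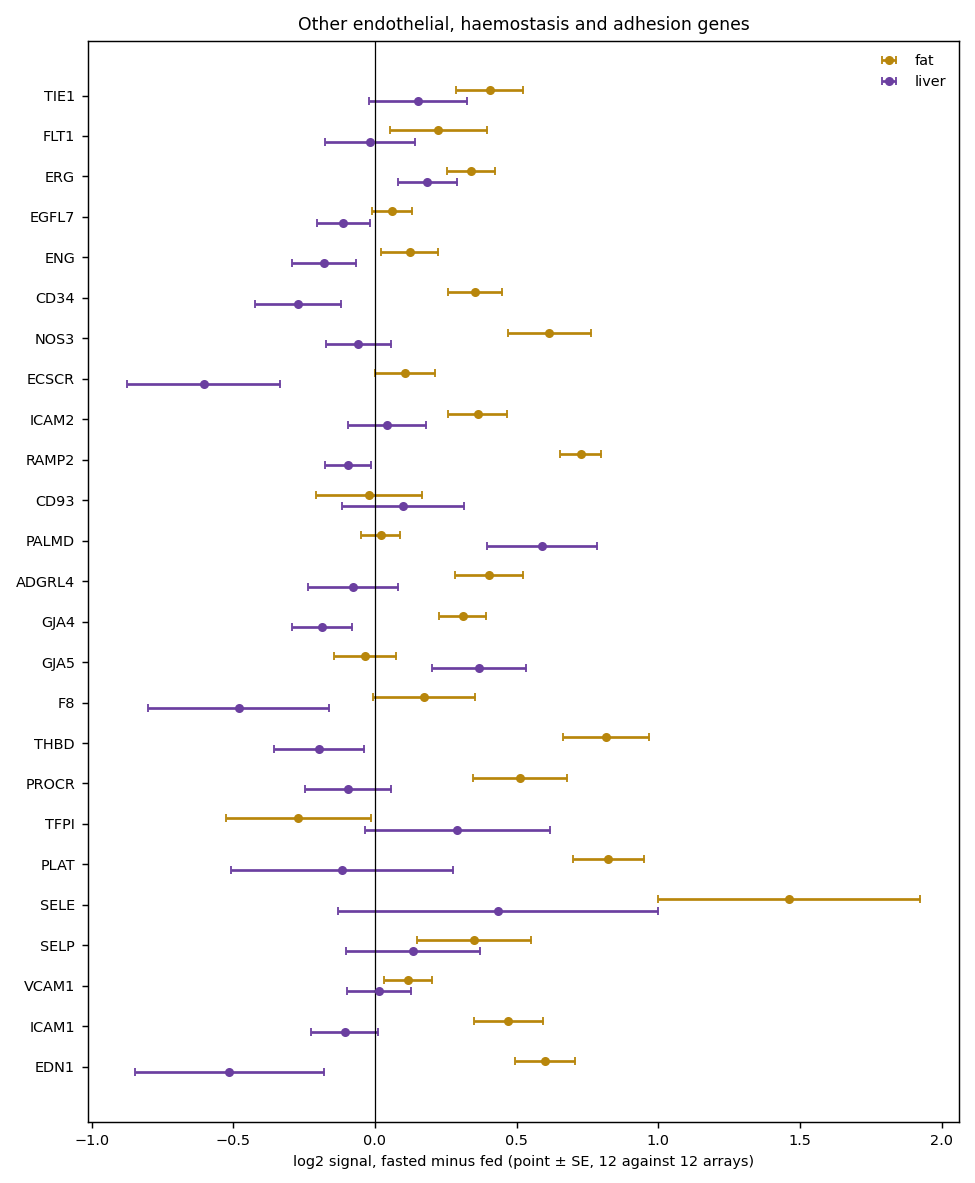
Log2 difference of signal, fasted minus fed, with its SE for other endothelial markers and for genes of endothelial haemostasis and adhesion in fat (gold) and liver (purple), 12 arrays against 12. In fat, RAMP2 (0.73), PLAT (0.82) and THBD (0.82) lie right of 0 with narrow errors, and in liver none of these genes was called.

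The ligands of the receptors were not called. In fat after fasting 15.3% of all genes were called higher and 18.9% lower, the shares to set beside the counts here. Of 5 genes of angiopoietin and Tie signalling, the receptors TEK and TIE1 were called higher in fasted fat, while the ligands ANGPT1 and ANGPT2 had 0.02 and -0.08, and the factor FOXO1 0.29 (adjusted p = 0.171). Of 5 VEGF ligands and receptors, KDR included, limma called 0 (1 at an unadjusted p under 0.05), with VEGFA at 0.22 (adjusted p = 0.130). Of 13 genes of tight and adherens junctions 5 rose and 1 fell: ESAM, CLDN5, TJP1 (0.60 ± 0.13), PECAM1 and CLDN3 (0.70 ± 0.25) rose, and JUP, plakoglobin, fell by 0.40 (log2; adjusted p = 0.0108). Of these, ESAM, CLDN5 and PECAM1 are members already counted above. TJP1, a scaffold of tight junctions, and CLDN3 are also expressed by other cell types, and CLDN3 was named after its values were seen, to complete the count. Of 6 genes of fat capillaries 1 rose and 2 fell: GPIHBP1, which holds lipoprotein lipase on the capillary wall, was 1.36 ± 0.19 higher (adjusted p = 1.42e-05), while CAV2 fell by 0.31 and FABP5 fell by 0.21. FABP4, another of the 6, also stands in the adipocyte list, and the cell type from which these signals came was not tested. Of 5 sinusoidal markers LYVE1 alone rose in fat (0.61 ± 0.19). Between the tissues, the sinusoidal markers GATA4, MRC1, FCGR2B and LYVE1 had log2 differences, fat minus liver, of -4.32, -3.10, -3.04 and -0.91. The sinusoidal marker F8 went the other way, at 0.49 (limma adjusted p = 0.0269). GPIHBP1 had 4.07.

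Markers of other cells were measured beside these results. In fat after fasting 0 of 9 macrophage, 0 of 9 lymphocyte and 0 of 9 skeletal muscle genes were called, with no gene of these lists at an unadjusted p under 0.05 by limma. Summed signals (lowest, median, highest) of the macrophage list were 5230, 7181 and 13509 in fasted fat and 4768, 7172 and 23142 in fed fat, and those of the muscle list 297.9, 8436 and 123715 in fasted fat and 358, 13190 and 82898 in fed fat. The ranges of both lists overlapped widely between the feeding groups. Their highest sums differed, that of muscle being in fasted fat and that of macrophages in fed fat. The muscle-rich arrays were unevenly spread, with D298 replicates 4, 5 and 6 and N298 replicate 6 fasted, and N298 replicate 3 fed. Of 8 fibroblast genes 5 were called lower, where 18.9% of all genes were called lower and 15.3% higher. LUM fell by 1.24 log2 units (adjusted p = 1.94e-09), and the summed signal was 26631, 34977 and 46998 in fasted fat against 36819, 48058 and 57738 in fed fat. Of 9 genes of cell division 8 were called lower, and TOP2A fell by 2.01 (adjusted p = 1.32e-05). Of 10 adipocyte genes PCK1 (1.45 ± 0.37) and CFD (0.44 ± 0.11) rose, while LPL fell by 1.03 and GPD1 fell by 0.36; their summed signal was 72784, 88220 and 99502 in fasted fat and 68816, 90598 and 105910 in fed fat. Of 8 genes of pericytes and smooth muscle PDGFRB (0.43 ± 0.09) and TAGLN (0.46 ± 0.11) rose and RGS5 fell by 0.45. Of 5 platelet genes PPBP rose (1.24 ± 0.36), of 12 hepatocyte genes APOA1 (0.70 ± 0.09), of 3 erythroid genes HBB (0.36 ± 0.08) and of 3 lymphatic genes LYVE1. The part of these shifts in the endothelial results was not tested.

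The GAPDH 3' to 5' ratio, a measure of RNA integrity, also moved with feeding in fat: it was 0.59, 1.82 and 2.44 log2 units (lowest, median, highest) in fasted fat and 0.61, 1.22 and 1.51 in fed fat, while in liver it was 0.47, 1.01 and 1.42 in fasted and 0.61, 0.97 and 1.79 in fed gilts. The actin 3' to 5' ratio had near medians in fat, with 1.32, 1.73 and 2.28 in fasted and 1.24, 1.66 and 3.30 in fed gilts. The 5 muscle-rich arrays had the lowest GAPDH ratios among the fat arrays, 0.59 to 0.78. The part of muscle signal in that ratio was not tested. With the GAPDH ratio as a covariate, added after the data were seen, CLDN5, TEK, VWF and ESAM kept their calls and their directions in fat.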

How the data were processed

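Fat and liver RNA of 24 gilts was hybridised to 48 Affymetrix arrays. Each deposited value is the signal intensity of a probe set, computed with MAS5 in the affy package per the submitters' processing notes, with no zeros; the authors' scaling leaves a 2% trimmed mean of 500.089 to 500.165 on every array. The deposited intensities were taken to log2 with nothing added. Of 24123 probe sets 124 controls were left out. Symbols came from the platform annotation (10069 probe sets with 1 symbol, 198 with several, 13732 with none; 9961 matched the RefSeq gene table by gene ID, and 0 symbols changed). Each tissue was fitted by itself in limma 3.58.1 (R 4.3.3; lmFit, then eBayes with a mean-variance trend), with terms for the 4 groups and a 6-level block for replicate number, as the series describes a block design; same-numbered arrays of different groups correlated at r from -0.073 to 0.147 in fat and -0.057 to 0.067 in liver. Contrasts between tissues came from a joint fit over the 48 arrays, in which gilt was a random effect (correlation 0.084). Tests were 2-sided, adjusted by Benjamini and Hochberg over all 23999 probe sets, and called at an adjusted p under 0.05; the number of arrays limits their precision. Permutation tests used 100000 resamples (SciPy 1.17.1). Those of the within-array ratios with a replicate left out used fewer, and their p-values were not adjusted. The fits were also run on simulated data with known differences and independent arrays, without gilt, block or scaling effects. No result here rests on that run. All member probe sets are named; of each of 19 gene lists, the text names, by smallest p, at most 4 called genes that moved the way most did and 2 that moved the opposite way, with VEGFA, ANGPT1, ANGPT2, TIE1, FLT1, NOS3 and GPIHBP1, the 3 most alike genes per member, and CLDN3 outside that rule. Members, lists and this rule were chosen with earlier results of these data known. Sequences and positions were not used here.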

Additional observations from a re-analysis of the deposited data

Results flagged for a closer look

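Of 128 sets of 6 arrays (16 probe sets in 8 groups), 14 had 1 array far from the others by Dixon's test, where chance alone marks about 1 set in 20. In fat these were the second probe set of TEK at 79.7 (N298 fasted replicate 1, lowest), the second of PECAM1 at 4721 (N298 fasted replicate 2, highest) and at 1727 (N298 fed replicate 3, lowest, one of the muscle-rich arrays), and KDR at 36.1 (N298 fed replicate 6, lowest) and at 80.2 (D298 fasted replicate 1, lowest). In liver they were CLDN5 at 601 (D298 fed replicate 5, highest), TEK at 2248 (D298 fed replicate 1, highest), the second probe set of TEK at 180.3 (N298 fed replicate 1, lowest) and at 45.1 (D298 fasted replicate 2, lowest), the third of TEK at 29.3 (N298 fasted replicate 6, highest), the third of VWF at 58.1 (D298 fed replicate 2, highest), the third of ESAM at 4.20 (N298 fasted replicate 5, lowest), and KDR at 97.5 (N298 fed replicate 1, lowest) and at 45.0 (D298 fasted replicate 2, lowest). KDR and the second probe set of TEK were lowest on the same 2 liver arrays, N298 fed replicate 1 and D298 fasted replicate 2.

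The fasting response differed between fat and liver, by the test of that difference, for CLDN5 (1.04 log2 units, fat minus liver), TEK (0.95, and 1.12 for its second probe set), VWF (0.79), both probe sets of PECAM1 (0.44 and 0.43) and the dim second probe set of KDR (2.05). The call of the second TEK probe set was lost under median centring and without replicate 2, 3, 4 or 6, that of the second PECAM1 probe set under median centring and without replicate 1, 3 or 6, and that of the KDR probe set without replicate 2, 3 or 4 (1.70 to 1.99).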

How the results depend on the processing

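Of 1986 member values under the alternatives, 1946 kept their direction and their side of the threshold (or were uncalled throughout), 31 were no longer called, 7 became called and 2 that were not called became called with the opposite sign: fat against liver, the second VWF probe set (-0.28) and CDH5 (-0.28) under median centring. In all 93 values changed sign, those 2 included, and the rest were uncalled in both settings. For fasting in fat, 3481 probe sets were called without muscle-rich arrays, against 6048 in all. For fasting in liver, leaving out 1 replicate number gave 667 (without replicate 3) to 901, against 1073. For genotype in liver, no replicate block and a random replicate block each gave 1 call, and leaving out a replicate gave 0 to 2 (2 without replicate 3), against 0. For the genotype by fasting interaction in fat, leaving out a replicate gave 0 to 4 (4 without replicate 1), against 0. For fat against liver, brighter probe sets only gave 10409 calls, against 17291, and member probe sets called lower were 6 under median centring, against 3. For the fasting response of fat against liver, member probe sets called higher were 3 under median centring and 3 to 7 leaving out a replicate, against 7, and member genes called by brightest probe set were 2 under median centring and 2 to 4 leaving out a replicate, against 4. For the covariation of members, with a replicate block 1 pair was called in fat, against 4, and 2 in liver, against 1, and 0 in liver under median centring. The cause of these shifts was not tested, beyond the smaller number of probe sets or arrays that brighter probe sets only and left-out arrays bring. The shares of calls that were higher also moved with median centring in liver (50.8% in the main setting, 68.1% under it), in N298 fat (58.5%, 44.5%), in D298 fat (51.9%, 31.1%) and in N298 liver (52.4%, 80.4%). Within a tissue, arrays did not as a rule correlate best with the same-numbered array of another group (16 of 72 pairings in fat, 17 of 72 in liver). Without the replicate block 5805 probe sets were called for fasting in fat and 1082 for fasting in liver. Dim probe sets limit what TEK, VWF and ESAM can show beyond their bright ones. KDR had no bright probe set, as its brightest ranked at percentile 48.7 of mean signal in fat and 54.9 in liver. The brightest of VWF ranked at percentile 45.7 in liver.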
